A study of Homo sapiens with 10 samples.

Results

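Integrins are paired receptors in the cell membrane, 1 α and 1 β subunit each, that bind the extracellular matrix outside the cell and the actin or keratin cytoskeleton inside it. The subunits described were chosen by name, with earlier results of these data known. They are 5 α subunits (ITGA2, ITGA3, ITGA5, ITGA6 and ITGAV) and 5 β subunits (ITGB1, ITGB4, ITGB5, ITGB6 and ITGB8). They were the non-control spots whose gene name in the scanner files was one of these symbols, which gave 38 of 43376 spots and 20 of 41000 probes, for 10 genes of 28091 named on the array. PC-3 is an established human prostate cancer cell line. Its RNA was hybridized to 10 single-color Agilent Whole Human Genome arrays, 2 biological replicates in each of 5 groups. The groups were cells at 0 h before any reagent, and cells 24 h after DMSO (the solvent), 60 µM luteolin (a plant flavone), 60 µM gefitinib (an inhibitor of the EGFR kinase) or 60 µM of each drug together. All 5 groups were the same unmodified cell line, and both drugs were dissolved in DMSO. The question put to the arrays was which transcripts change when the drugs slow the growth of these cells, and here it is asked of the adhesion receptors.

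In epithelial cells most α subunits pair with ITGB1, ITGA6 also pairs with ITGB4 in hemidesmosomes, and ITGAV pairs with several β subunits. The pairs of ITGA3 or ITGA6 bind laminins, the pair of ITGA2 binds collagens, the pair of ITGA5 binds fibronectin, and the ITGAV pairs bind vitronectin, fibronectin or the latent form of TGF-β. Subunits reach the cell surface only as pairs, so a transcript level is not a level of receptor at the surface.

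The names of the scanner files carried another treatment than the sample labels for all 6 drug-treated arrays. Files of the arrays labelled luteolin were named for gefitinib, those labelled gefitinib for both drugs, and those labelled with both drugs for luteolin. The groups below are those of the labels, and a drug name means the arrays so labelled. The 75th percentile of the signal, to which each array was scaled, was 628 and 651 on the gefitinib arrays, 540 and 865 with both drugs, and between 1041 and 1402 on the other 6 arrays. After this scaling the median change of all 19719 genes against DMSO was 0.08 with luteolin, 0.22 with gefitinib and 0.16 with both drugs on the log2 scale, so that a change of an integrin is also given relative to these medians. Without scaling these medians were -0.17, -0.82 and -0.78. The share of called genes that were raised against DMSO with gefitinib was 52.3%, but 40.2% after quantile normalization and 3.63% without any scaling between arrays. With both drugs it was 61.1%, 44.8% and 6.87% in the same order, and with luteolin 53.9%, 48.9% and 29.8%. Of the 5 epithelial markers, all were well above background on all 10 arrays, and so was KLK3, the prostate-specific antigen. KLK3 is 1 of 4 prostate luminal and androgen-driven markers, of which 3 or 4 were well above background on each array. KLK3 rose with gefitinib against DMSO by 1.36 on the log2 scale (limma adjusted p = 0.00395), a call lost under 3 of 23 alternatives. Of the leukocyte markers, PTPRC was well above background on 0 arrays, while CD14 and CD3E rose with gefitinib by 1.81 and 1.25 on the log2 scale (CD14 was not called with the slide as a block, at 1.50), and the summed level of these 3 markers was 21.3 to 26.8% of the 75th percentile with gefitinib, 15 to 19.7% with both drugs and 8.18 to 8.89% with DMSO. In RNA from a whole culture, fewer cells of a kind and less RNA per cell cannot be told apart.

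The integrin transcripts did not move as a block. Against DMSO, ITGA6 and ITGB8 fell at least 2-fold with gefitinib and with both drugs, while ITGA3 rose at least 2-fold in both. With luteolin alone none of the 9 integrins tested changed 2-fold against DMSO. ITGB8 was then 2.54-fold above its level at 0 h, a comparison that also takes in 24 h with DMSO. A gene was called at an adjusted p under 0.05 (limma, Benjamini-Hochberg over all 28776 probes kept) with a change of at least 1 on the log2 scale. ITGB6 could not be tested, so 9 of the 10 integrins were. With DMSO against 0 h, 0 of 9 were called by limma, where 0.0355% of all 19719 genes were. An unadjusted p under 0.05 was found there for 1 of 9 and for 1217 of the 19719 genes. With luteolin against DMSO, 0 of 9 were called by limma, against 13.4% of all genes. An unadjusted p under 0.05 was found there for 5 of 9 and for 7578 of the 19719 genes. With gefitinib 3 of 9 were called, against 29.9% of all genes, of which 1 was raised (15.6%) and 2 were lowered (14.3%). With both drugs it was 3 of 9, against 19.8%, of which 1 was raised (12.1%) and 2 were lowered (7.69%). Whether these shares differ from those of all genes was not tested. Without the minimum fold, 3 of 9 integrins passed the adjusted p with luteolin (26% of all genes), 6 of 9 with gefitinib (55%) and 5 of 9 with both drugs (41.3%). The comparisons against DMSO share the same DMSO arrays.

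**Figure D1:**
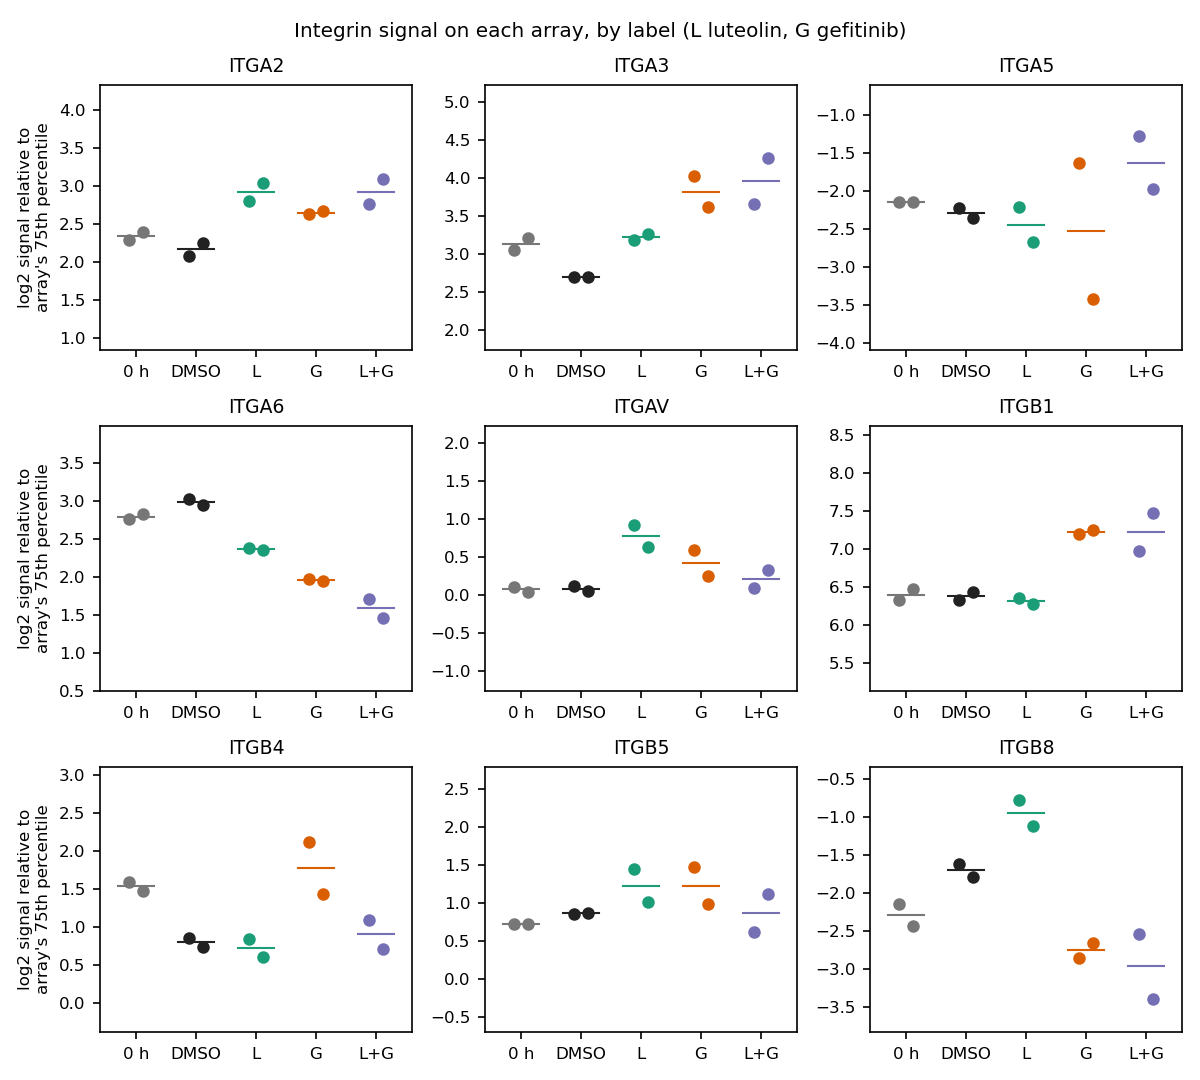
Level of each of the 9 integrins tested on each of the 10 arrays. Each panel is 1 gene, the vertical axis is the log2 of processed signal over the 75th percentile of that array (each panel spans the same number of log2 units), the points are the 2 arrays of each labelled group and the lines are their means. ITGA6 steps down from DMSO over luteolin and gefitinib to both drugs, ITGB8 is highest with luteolin and lowest with both drugs, and the points of ITGA5 lie far apart with gefitinib.

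ITGA6, the α subunit of laminin receptors and hemidesmosomes, had the largest mean decrease among the 9 integrins tested with both drugs. It was measured by 1 probe at chr2:173078802-173078861 (hg18, plus strand), and no transcript model of that build was used here to place the probes in exons or UTRs. Its level, as log2 of the ratio to the array's 75th percentile, was 2.76 and 2.83 at 0 h, 3.03 and 2.95 with DMSO, 2.38 and 2.36 with luteolin, 1.98 and 1.95 with gefitinib, and 1.71 and 1.46 with both drugs. Both arrays of each drug-treated group lay below all 4 arrays without drug, and no pair of groups overlapped. Against DMSO the log2 change was -0.62 ± 0.15 (SE, n = 2 arrays a group, limma adjusted p = 0.0199) with luteolin, -1.03 (adjusted p = 0.00141) with gefitinib and -1.40 (adjusted p = 0.000992) with both drugs, the last a 2.64-fold decrease. The order of ITGA6 and ITGB8 turned within slide 2, where they read -1.49 and -1.60 with both drugs, and without replicate 1 of the combination, where they read -1.52 and -1.69. Relative to the median of all genes the changes were -0.70, -1.24 and -1.56. Against 0 h the decrease was called only with both drugs, at -1.21 (adjusted p = 0.00138), where 19.8% of all genes were called, and was -0.84 (adjusted p = 0.00304) with gefitinib. Both drugs together differed from luteolin alone by -0.78 (adjusted p = 0.00516), while the difference from gefitinib alone was -0.37 (95% confidence interval -0.72 to -0.03, adjusted p = 0.0723). The change with gefitinib lay close to the 2-fold limit, at -0.99 (adjusted p = 0.0164) without DMSO replicate 1 and -0.98 with median centring. Without any scaling between arrays the decreases were -2.07 with gefitinib and -2.35 with both drugs.

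ITGB8, which pairs with ITGAV and releases TGF-β from its latent form, had the widest span of group means among the 9 integrins tested, 2.02 on the log2 scale. The probe that stood for it, that of the highest mean signal, at chr7:20421662-20421721 (hg18, plus strand), read -2.14 and -2.43 at 0 h, -1.61 and -1.78 with DMSO, -0.77 and -1.12 with luteolin, -2.84 and -2.66 with gefitinib, and -2.53 and -3.39 with both drugs. The arrays with luteolin were the highest and the gefitinib and combination arrays the lowest, and only these last groups overlapped. Against DMSO the log2 change was 0.75 ± 0.28 (SE, n = 2 a group, limma adjusted p = 0.0836) with luteolin, -1.05 (adjusted p = 0.014) with gefitinib and -1.26 (adjusted p = 0.0103) with both drugs. Relative to the median of all genes these changes were 0.67, -1.27 and -1.43. With luteolin ITGB8 was higher than at 0 h by 1.34 (adjusted p = 0.00913). That was the single call among the 9 integrins tested, where 16.1% of all genes were called. A comparison with 0 h also takes in 24 h with DMSO. DMSO alone differed from 0 h by 0.59 (95% confidence interval -0.06 to 1.23, adjusted p = 0.874). Against 0 h, gefitinib gave -0.47 (adjusted p = 0.191) and both drugs gave -0.67 (adjusted p = 0.0866). Of the 9 integrins tested, 0 were called by limma with gefitinib against 0 h, where 29% of all genes were. An unadjusted p under 0.05 was found there for 3 of 9 and for 11969 of all 19719 genes.

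The levels of ITGB8 under the 2 drugs were compared directly. This tests a difference between the drugs and not opposite changes from DMSO, since the rise with luteolin over DMSO was not called. Gefitinib differed from luteolin by -1.81 (95% confidence interval -2.45 to -1.16, limma adjusted p = 0.00102), a 3.50-fold lower level. Both drugs together differed from luteolin by -2.02 (adjusted p = 0.00149), 4.05-fold lower, and from gefitinib by -0.21 (95% confidence interval -0.85 to 0.43, adjusted p = 0.556). Of the 9 integrins tested, ITGB8 was 1 of 2 called between the drugs given alone (36.6% of all genes). It was the 1 called between both drugs and luteolin (21% of all genes). Between both drugs and gefitinib 0 of 9 were called by limma (27% of all genes). An unadjusted p under 0.05 was found there for 2 of 9 and for 10863 of all 19719 genes. Because the file names exchange these treatments, ITGB8 would read -1.26 with luteolin and 0.75 with gefitinib against DMSO by the file names.

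The other probes of ITGB8 gave smaller changes in the same directions. The probe at chr7:20412227-20412286 read 0.63 (adjusted p = 0.13) with luteolin, -0.62 (adjusted p = 0.0853) with gefitinib and -0.81 (adjusted p = 0.0445) with both drugs against DMSO. The probe at chr7:20397565-20397624 was well above background on 7 of 10 arrays and read 0.62, -0.67 and -0.58, none past the adjusted p. It was not well above background on either gefitinib array. Its values with gefitinib and with DMSO overlapped (95% confidence interval of the change -1.82 to 0.47), so no least decrease was set. The last probe was well above background on 1 array and was not tested. With the median over the probes, ITGB8 changed by -0.62 with gefitinib and -0.81 with both drugs and was not called. The normexp background correction gave -0.56 and -0.70. The call with gefitinib was lost without DMSO replicate 1 (-0.97, adjusted p = 0.0749) and without gefitinib replicate 1 (-0.96, adjusted p = 0.0657). The call with both drugs was lost without DMSO replicate 1 (-1.18, adjusted p = 0.0642) and without replicate 2 of the combination (-0.83, adjusted p = 0.0363). The rise with luteolin over 0 h was 1.19 (adjusted p = 0.0589) without 0 h replicate 2 and 1.17 (adjusted p = 0.0535) without luteolin replicate 1.

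**Figure D2:**
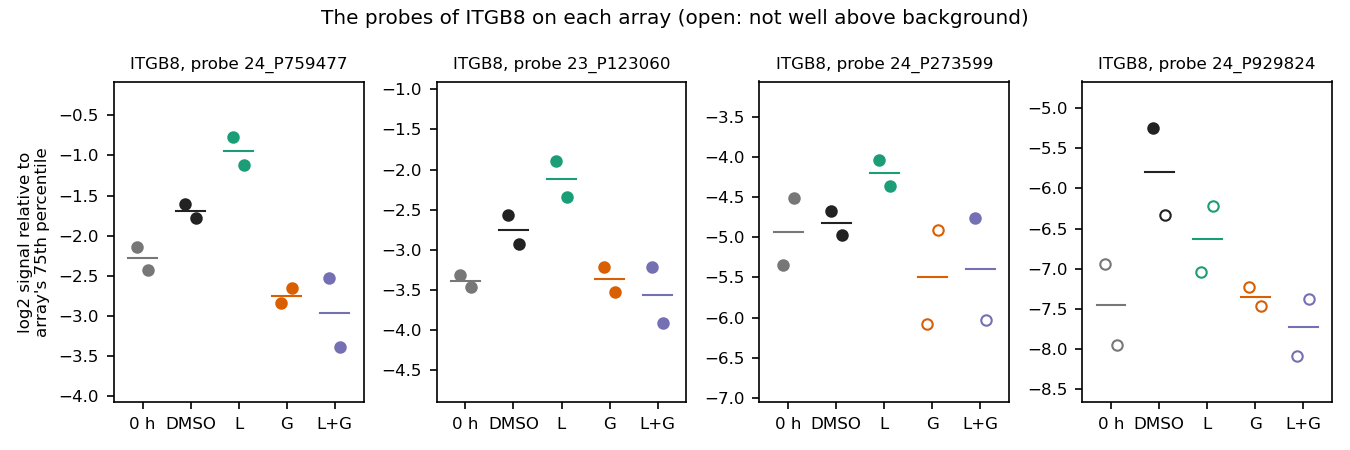
The 4 probes of ITGB8, ordered by mean level. The vertical axis is log2 of the ratio of signal to the 75th percentile, each point is 1 array, open points were not well above background, and lines are the means of the 2 arrays of a labelled group. The 3 probes at the left have their highest mean with luteolin, and their means with gefitinib and with both drugs are lower than with DMSO. The probe at the right was well above background on 1 array.

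Only ITGA3 of the 9 integrins tested was raised at least 2-fold against DMSO. It pairs with ITGB1 as a laminin receptor of epithelial cells. Its probe at chr17:45522364-45522423 (hg18, plus strand) read 3.05 and 3.21 at 0 h, 2.70 and 2.70 with DMSO, 3.20 and 3.27 with luteolin, 4.03 and 3.62 with gefitinib, and 3.67 and 4.27 with both drugs. The DMSO arrays were the lowest of all 10, and every gefitinib and combination array was higher than every other array. Against DMSO, ITGA3 rose by 1.13 ± 0.23 (SE, n = 2 a group, limma adjusted p = 0.00474) with gefitinib and by 1.27 (adjusted p = 0.00486) with both drugs, and the value with luteolin was 0.53 (95% confidence interval 0.01 to 1.06, adjusted p = 0.124). Against 0 h the changes were 0.70 (adjusted p = 0.032) and 0.84 (adjusted p = 0.021) with gefitinib and both drugs, so that neither reached 2-fold. Relative to the median of all genes the changes against DMSO were 0.91 and 1.11.

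The rise of ITGA3 turned on how the arrays were scaled. Its processed signal was 8763 and 8352 under DMSO, 10640 and 7738 under gefitinib and 11000 and 10440 with both drugs, so the groups overlapped with gefitinib before scaling. Without scaling the change was 0.08 (adjusted p = 0.786) with gefitinib and 0.33 (adjusted p = 0.275) with both drugs, and after quantile normalization ITGA3 read 0.63 and 1.02. Without gefitinib replicate 1 it was 0.92 with gefitinib, and without replicate 2 of the combination it was 0.97 with both drugs.

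ITGB1, the common β partner, was higher with gefitinib and with both drugs by less than 2-fold. The probe at chr10:33229449-33229508 (hg18, minus strand) read 6.33 and 6.47 at 0 h, 6.33 and 6.43 with DMSO, 6.35 and 6.28 with luteolin, 7.21 and 7.25 with gefitinib, and 6.97 and 7.48 with both drugs. The gefitinib and combination arrays stood above the 6 others, which overlapped. Against DMSO the changes were 0.85 ± 0.19 (SE, n = 2 a group, limma adjusted p = 0.0069) with gefitinib and 0.85 (adjusted p = 0.0107) with both drugs, under 2-fold, and -0.07 (95% confidence interval -0.50 to 0.37) with luteolin. This direction was not kept by every scaling. After quantile normalization ITGB1 read -0.05 with gefitinib and 0.12 with both drugs, and without scaling -0.19 and -0.10, with processed signals of 108400 and 110700 under DMSO and of 96010 and 95900 under gefitinib. The other 2 probes at the ITGB1 locus read 0.64 and 0.51 with gefitinib and 0.73 and 0.59 with both drugs, none past the adjusted p. A further probe that carries the name ITGB1 lies on another chromosome in hg18 and was kept apart. Its changes of 0.82 with gefitinib and 0.83 with both drugs were close to those of ITGB1.

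The start regions of ITGA6 and ITGB1 are shown for the letters they hold. RefSeq windows (GRCh38.p14) of 250 bases before a start site were found for 8 of the 10 integrins, 13 windows in all, with ITGA3 and ITGB4 not among them. The 2 windows at the 5′ end of the gene are printed on the gene's strand, since they show the letters before the first base of the integrin with the largest mean decrease under both drugs and of the common β partner, with capitals for matches on either strand to the GC box (GGGCGG), the AP-1 motif (TGANTCA), the CRE (TGACGTCA), the TATA box (TATAAA), the E-box (CACGTG) and the TEAD motif (GGAATG). No motif overlaps another in them.
ITGA6, chr2:172427086-172427335, plus strand: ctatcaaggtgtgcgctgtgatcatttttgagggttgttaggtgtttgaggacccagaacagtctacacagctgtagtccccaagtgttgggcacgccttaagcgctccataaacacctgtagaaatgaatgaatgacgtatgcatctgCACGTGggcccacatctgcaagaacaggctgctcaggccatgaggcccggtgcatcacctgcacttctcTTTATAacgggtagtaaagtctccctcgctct
ITGB1, chr10:32958231-32958480, minus strand: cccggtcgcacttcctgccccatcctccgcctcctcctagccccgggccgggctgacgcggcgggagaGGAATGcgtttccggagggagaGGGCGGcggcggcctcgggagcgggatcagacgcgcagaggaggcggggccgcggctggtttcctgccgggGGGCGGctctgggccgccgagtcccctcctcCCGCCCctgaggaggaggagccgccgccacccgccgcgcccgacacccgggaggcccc
The ITGA6 window is 50.8% G or C and holds 1 TATA box and 1 E-box, while the ITGB1 window is 78.4% G or C and holds 3 GC boxes and 1 TEAD motif. Other start sites of the same genes do not keep this contrast. A second ITGA6 window, which follows directly on the printed one, is 71.6% G or C with 3 GC boxes, and a second ITGB1 window is 41.6% G or C with 3 TATA boxes and 0 GC boxes. The median over 34943 windows was 58%, and 42.5% of them held a GC box, 11.9% a TEAD motif, 10.8% a TATA box, 6.59% an AP-1 motif, 6.32% an E-box and 1.63% a CRE. A match is a run of letters and not a measured site, and these arrays do not measure binding or start site use.

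**Figure D3:**
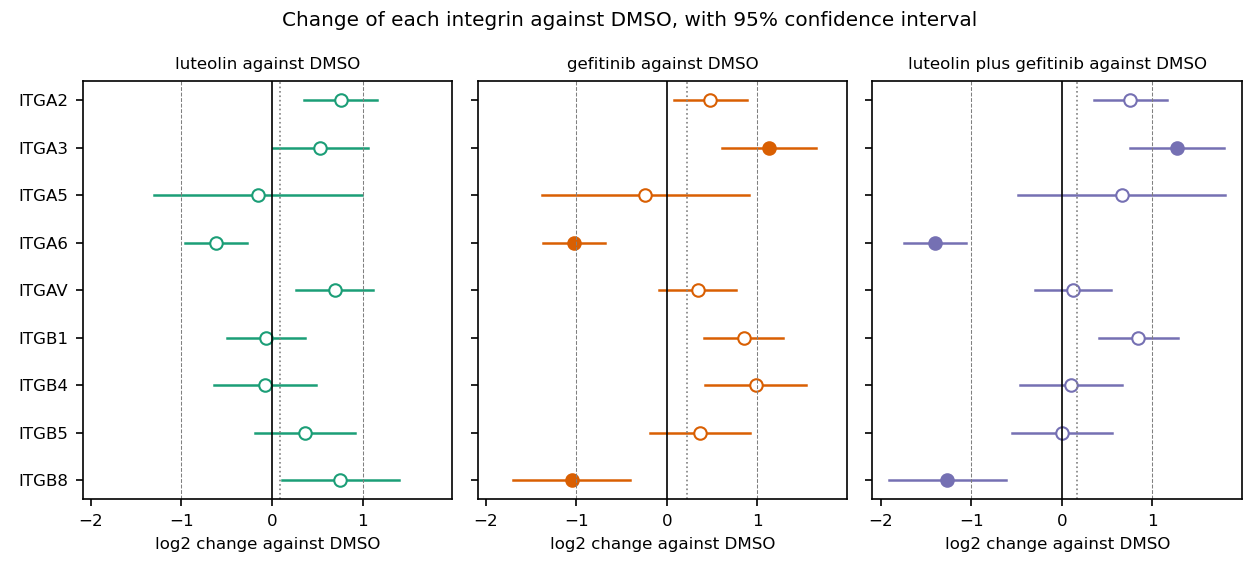
Log2 change of the 9 integrins tested against DMSO, 1 panel per labelled drug group. Points are limma estimates from 2 arrays a group, bars are 95% confidence intervals, filled points were called, dashed lines mark a 2-fold change and the dotted line is the median change of all 19719 genes. With gefitinib and with both drugs ITGA3 is to the right and ITGA6 and ITGB8 are to the left of the dashed lines, and with luteolin no point is filled.

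ITGB4, the β partner of ITGA6 in hemidesmosomes, did not follow ITGA6. Its probe at chr17:71265173-71265232 (hg18, plus strand) read 1.60 and 1.48 at 0 h, 0.87 and 0.74 with DMSO, 0.84 and 0.61 with luteolin, 2.13 and 1.44 with gefitinib, and 1.10 and 0.72 with both drugs. The gefitinib arrays were above all DMSO, luteolin and combination arrays and overlapped those at 0 h. Against DMSO the change with gefitinib was 0.98 ± 0.25 (SE, n = 2 a group, limma adjusted p = 0.0109), just under 2-fold, and with both drugs it was 0.10 (95% confidence interval -0.46 to 0.67). The change with gefitinib was 0.64 (adjusted p = 0.0585) without gefitinib replicate 1 and 1.32 (adjusted p = 0.00545) without gefitinib replicate 2. It was called, at 1.04 (adjusted p = 0.0109), with the slide as a block, and within slide 3 it was 1.26. Gefitinib exceeded luteolin by 1.06 (adjusted p = 0.0065), and the combination differed from gefitinib by -0.88 (adjusted p = 0.0192). DMSO differed from 0 h by -0.74 (adjusted p = 0.661), and gefitinib from 0 h by 0.24 (95% confidence interval -0.32 to 0.80). The difference between the drugs given alone was 0.71 (adjusted p = 0.0342) without gefitinib replicate 1 and 0.94 (adjusted p = 0.0449) without luteolin replicate 2. Without scaling, ITGB4 read -0.06 with gefitinib against DMSO.

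ITGA2, the collagen-binding α subunit, was higher in all 3 drug groups than in DMSO by less than 2-fold. It read 2.29 and 2.39 at 0 h, 2.08 and 2.25 with DMSO, 2.80 and 3.05 with luteolin, 2.63 and 2.67 with gefitinib, and 2.76 and 3.09 with both drugs at chr5:52424025-52424084 (hg18, plus strand). All 6 drug-treated arrays were above the 4 without drug. The changes against DMSO were 0.76 (limma adjusted p = 0.016), 0.48 (adjusted p = 0.046) and 0.76 (adjusted p = 0.0119) with luteolin, gefitinib and both drugs. The other 3 probes of ITGA2 read 0.83 to 0.91 with luteolin, 0.49 to 0.81 with gefitinib and 0.77 to 0.89 with both drugs. Of these, the probe at chr5:52425394-52425453 passed the adjusted p in no drug group (limma adjusted p = 0.0864, 0.252 and 0.102). Its gefitinib and DMSO arrays overlapped. Without scaling between arrays, ITGA2 read 0.50, -0.56 and -0.19, so its direction turned with gefitinib and with both drugs.

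On the probes that stood for them, the vitronectin receptor subunits had the narrowest spans of group means of the 9 integrins tested. These were 0.70 for ITGAV and 0.50 for ITGB5 on the log2 scale. ITGAV, the α subunit shared by the TGF-β activating receptors, read 0.11 and 0.05 with DMSO and 0.91 and 0.63 with luteolin at chr2:187253540-187253599 (hg18, plus strand), and the luteolin arrays were the highest of all 10. The change with luteolin was 0.69 (limma adjusted p = 0.0272) against DMSO and 0.70 (adjusted p = 0.0228) against 0 h. With gefitinib ITGAV read 0.59 and 0.25, a change of 0.34 (95% confidence interval -0.08 to 0.76), and with both drugs 0.09 and 0.33, a change of 0.13 (95% confidence interval -0.30 to 0.55). The other ITGAV probe, at chr2:187252339-187252398, was well above background on 7 of 10 arrays and on neither gefitinib array. Against DMSO it read 0.855 (limma adjusted p = 0.142) with luteolin, 0.45 (adjusted p = 0.343) with gefitinib and 0.95 (adjusted p = 0.0773) with both drugs. The partner of ITGAV, ITGB5, read 0.86 and 0.87 with DMSO, 1.45 and 1.01 with luteolin, 1.48 and 0.99 with gefitinib, and 0.62 and 1.12 with both drugs at chr3:125965181-125965240 (hg18, minus strand). The changes of ITGB5 were 0.36 (95% confidence interval -0.19 to 0.92), 0.36 (-0.19 to 0.92) and 0.00 (-0.55 to 0.56). Without scaling, ITGAV and ITGB5 read -0.70 and -0.68 with gefitinib and -0.82 and -0.94 with both drugs.

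ITGA5, the fibronectin receptor, could not be resolved. At chr12:53075923-53075982 (hg18, minus strand) it read -2.14 and -2.14 at 0 h, -2.22 and -2.34 with DMSO, -2.21 and -2.66 with luteolin, -1.63 and -3.41 with gefitinib, and -1.27 and -1.97 with both drugs. The gefitinib arrays were farther apart than any other pair of arrays for this gene, and between them lay all arrays but the higher one with both drugs. Against DMSO the changes were -0.15, -0.24 and 0.66, with 95% confidence intervals of -1.30 to 0.99, -1.38 to 0.91 and -0.48 to 1.80. Without gefitinib replicate 1, ITGA5 read -1.13 (limma adjusted p = 0.0284) with gefitinib.

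ITGB6, a β partner of ITGAV in epithelia, stayed near background, with 0 of 10 arrays marked as well above it. Its 1 probe covers a span of 5904 bases on hg18, chr2:160666576-160672479 (minus strand), and its signals were 3.46 to 11.9, where the lowest signal marked as well above background was 15.9 to 27.4 on the arrays. No fold was formed for it.

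Of the genes tested that are not among these integrins, BC069024 (r = 0.98), VASH1 (r = 0.97) and PHF21A (r = 0.97) had the array values most like those of ITGB8, by Pearson correlation over all 10 arrays. The arrays share the groups, the slides and the scaling, so these values are a description.

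**Figure D4:**
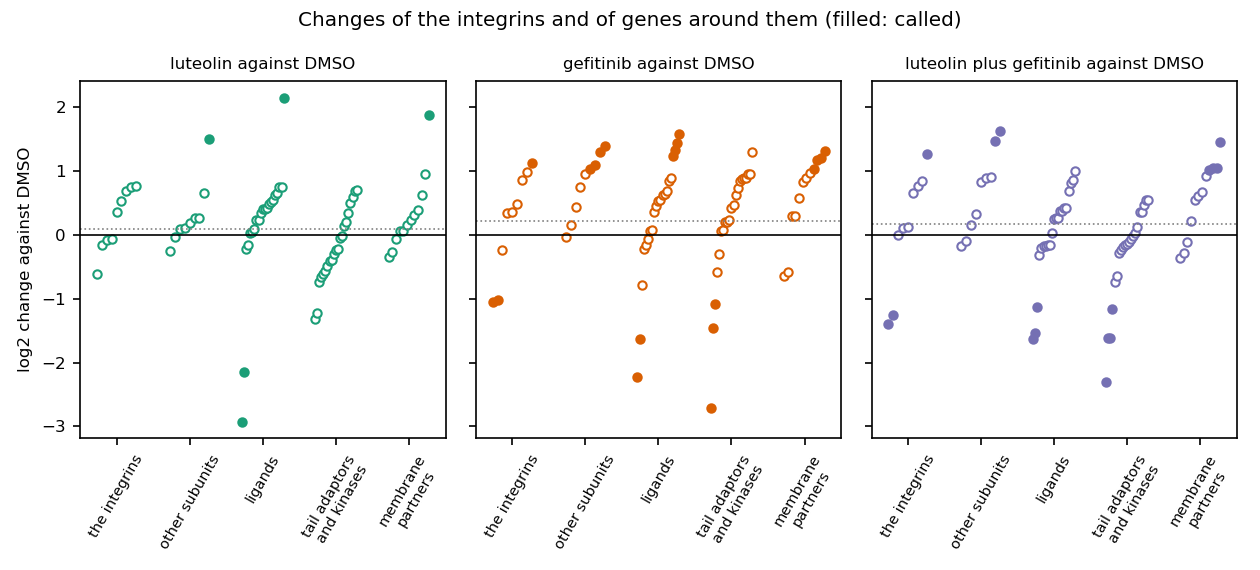
Log2 change against DMSO of the 9 integrins and of the tested genes of 4 lists around them, 1 panel per labelled drug group. Each point is 1 gene, ordered by its change within its list, filled points were called, and the dotted line is the median of all 19719 genes. The points of the other subunits and the membrane partners that are filled lie above 0, and those of the tail adaptors and kinases lie below 0.

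The rest of the family was described in the same way. Of 16 other integrin subunits, 9 were tested, and 1, 4 and 2 were raised with luteolin, gefitinib and both drugs against DMSO, with none lowered, and medians of 0.18, 0.95 and 0.82. Of all 19719 genes, 1423 were raised and 1216 lowered with luteolin, 15.6% and 14.3% with gefitinib, and 12.1% and 7.69% with both drugs. ITGA1, another collagen-binding subunit, rose by 1.50 (limma adjusted p = 0.00525) with luteolin and read -0.03 with gefitinib. ITGA9 rose by 1.39 with gefitinib and 1.47 with both drugs, ITGB2, the β subunit of leukocytes, by 1.29 with gefitinib, and ITGB3, another partner of ITGAV, by 1.62 (adjusted p = 0.0072) with both drugs. ITGA7, a laminin-binding subunit, read 1.09 (adjusted p = 0.0473) with gefitinib, and its call was lost under 13 of 23 alternatives (0.05 to 1.44), among them the replicate block and the slide block, which left 3 raised. The number raised with gefitinib was 2 without DMSO replicate 2 or without gefitinib replicate 1, and with both drugs it was 1 without DMSO replicate 2 and 4 without replicate 1 of the combination. Without scaling, 0 of these 9 subunits were raised in either group with gefitinib.

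Some ligand genes were raised and others lowered. Of 22 ligand genes, 21 were tested. The numbers raised and lowered were 1 and 2 with luteolin, 4 and 2 with gefitinib, and 0 and 3 with both drugs, with medians of 0.40, 0.52 and 0.25. The shares of all genes raised and lowered were 15.6% and 14.3% with gefitinib and 12.1% and 7.69% with both drugs. With luteolin 1423 and 1216 of all 19719 genes were raised and lowered. Whether the ligands differ from all genes was not tested. Without DMSO replicate 1 they were 2 and 2 with both drugs, and without scaling 0 and 6 with gefitinib and 0 and 9 with both drugs. CCN2, a matricellular ligand of ITGAV receptors, fell in all 3 drug groups, by 2.93 (limma adjusted p = 0.00126) with luteolin, 1.63 (adjusted p = 0.00584) with gefitinib and 1.63 (adjusted p = 0.00911) with both drugs on the log2 scale. Its relative CCN1 fell by 2.14 (adjusted p = 0.00238) with luteolin. LAMA4, a laminin chain, rose by 2.15 (adjusted p = 0.00041) with luteolin. FN1 (fibronectin) and LAMB3, a chain of the laminin bound by ITGA3 and ITGA6, rose by 1.57 and 1.44 with gefitinib and were not called without scaling between arrays. COL1A1 and LAMB1 fell by 1.54 and 1.12 with both drugs.

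Of the genes at the integrin tails, all 21 were tested, with medians of -0.23, 0.42 and -0.14. With luteolin 0 were called (13.4% of all genes). With gefitinib 3 were lowered (14.3% of all genes) and none raised (15.6%), and with both drugs 4 were lowered (7.69%) and none raised (12.1%). With gefitinib 2 were also raised with median centring, with the slide as a block, without DMSO replicate 1 and without gefitinib replicate 2. With both drugs 2 were lowered without DMSO replicate 1, and 1 was raised and 3 lowered without replicate 1 of the combination. TNS4 and TNS3, tensins that bind the tail of ITGB1, fell by 2.71 (limma adjusted p = 0.00423) and 1.08 (adjusted p = 0.00839) with gefitinib and by 2.31 (adjusted p = 0.0118) and 1.61 (adjusted p = 0.00306) with both drugs. BCAR1, a docking protein of focal adhesions, fell by 1.46 (adjusted p = 0.000681) with gefitinib. FERMT1, an activator of ITGB1, fell by 1.62 (adjusted p = 0.00306) with both drugs.

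Of 13 hemidesmosome and membrane partners, 12 were tested, and 1, 4 and 4 were raised with none lowered, at medians of 0.19, 0.86 and 0.64. Among all genes 15.6% were raised and 14.3% lowered with gefitinib, and 12.1% and 7.69% with both drugs. With luteolin it was 1423 and 1216 of 19719 genes. BSG, CD81 and CD63, membrane proteins that bind integrins, rose by 1.32, 1.21 and 1.17 with gefitinib (limma adjusted p = 0.00302, 0.00302 and 0.00502). SLC3A2, which binds the tail of ITGB1 and carries amino acid transporters, rose by 1.87 (adjusted p = 0.00311) with luteolin and 1.45 (adjusted p = 0.00693) with both drugs. CD63 and CD9 rose by 1.05 and 1.04 with both drugs. After quantile normalization 0 of the 12 partners were called with gefitinib and 1 with both drugs. With both drugs 1 was also left with median centring, with the normexp correction, without DMSO replicate 2 and without replicate 2 of the combination, and 2 were left without DMSO replicate 1. Without scaling 0 were raised, and 2 were lowered with gefitinib and 3 with both drugs. The number raised with gefitinib was 6 with the slide as a block and without gefitinib replicate 2. CDH1, the E-cadherin of cell junctions, rose in all 3 drug groups, by 1.29, 1.33 and 1.35, and read 1.04, 0.29 and 0.41 without scaling between arrays, none past the adjusted p. CDH1 is 1 of the 5 epithelial markers, whose summed level was 5760 to 9300% of the 75th percentile with both drugs and 12000 to 13500% with DMSO. Of these 5, 1 was raised and 0 were lowered with both drugs, and 1 was raised and 2 were lowered after quantile normalization.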

How the data were processed

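RNA of PC-3 cells was measured on 10 single-color Agilent arrays, 2 per group, which lay on 3 slides. Slide 1 held 0 h replicate 1 and gefitinib replicate 2. Slide 2 held replicate 2 of every group but gefitinib, and slide 3 held replicate 1 of every group but 0 h. Gefitinib and DMSO arrays therefore shared only slide 3. Per the file headers, the authors' Agilent Feature Extraction 10.7.3.1 wrote each processed signal as an intensity on a linear scale, with background and spatial trend subtracted and no normalization between arrays. The deposited value table holds the same intensities for 45015 of 45015 spots (tolerance 1e-04), and 0 of its columns were left unused. Coordinates are those of the files, on hg18.

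The scanner files were analysed in R 4.3.3 (limma 3.58.1). Control and outlier spots were dropped, each array was divided by the 75th percentile of its signal outside the controls, and log2 values of a probe's spots were averaged. Probes well above background (at least 50% of their spots) on both arrays of at least 1 group were kept, 28776 of 41000. The probe with the highest mean stood for a gene. One limma model (lmFit, eBayes; 5 residual and 3.36 prior degrees of freedom) covered the 5 groups, with Benjamini-Hochberg adjustment over all probes kept. All tests are two-sided. The share of spots well above background was 64.25 to 71.12% and 0 spots were saturated. Signal over background, not a count, sets the depth of an array, and 2 arrays a group limit the precision.

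All 10 integrins are named, with values of each of their probes that was tested. From the other lists, genes are named if called in a drug group against DMSO and measured above background by all 4 arrays compared, at most 3 per list and comparison, with the 3 genes most like the integrin of the widest span. PTPRC and ITGA1 with gefitinib were added after their values were seen. Some markers are not reported here. The integrins, lists and tests were chosen with earlier results of these data known. Alternatives were normexp (offset 50), quantile normalization, median centring and no scaling (these last 2 chosen after seeing the data), filters on dim probes, the value table, a replicate or slide block, fits of 2 groups alone, the file names' treatments, calls with no minimum fold, the median over probes, the methods' t-test against 0 h and leaving out each array, where a lone array is assumed to vary like the other groups. The analysis was tested on simulated arrays. Their changes were larger than those of the integrins called against DMSO, and no difference in scale between arrays was simulated. The simulation therefore does not bear on the calls reported here. Of the start sites, 3088 of 3088 overlapping windows of opposite strands were reverse complements, so sequences were read on the gene's strand.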

Additional observations from a re-analysis of the deposited data

How the results depend on the processing

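Over 25 alternatives, 2017 of 2142 values of the integrins kept their side of the threshold, 29 lost and 56 gained a call, and 40 changed sign where either value passed the adjusted p. Of the 2017, 78 changed sign with neither value past it. With both drugs against DMSO, ITGA6 was called under 23 of 23 alternatives (-2.35 to -1.03), ITGA3 under 21 and ITGB8 under 19. With gefitinib the numbers were 20 for ITGA6, 19 for ITGA3 and 18 for ITGB8. Some alternatives could hardly move these calls, so the counts are no measure of robustness. The value table holds the same intensities, and dropping the minimum fold can only add calls. Leaving out an array of a group not compared keeps the change and alters only the estimate of spread. The file names' treatments put other arrays in the drug groups.

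The replicate number as a block changed no call of the 9 integrins. The deviations of arrays with the same number correlated between groups at -0.10 to 0.29, not above 0.1 in every pair, so the number was not taken as a pairing, although several arrays of a number share a slide. With that block, 3 other integrin subunits in place of 4 were raised with gefitinib, and 1 tail gene in place of 0 was lowered with luteolin. With the slide as a block, ITGB4 was called as well with gefitinib against DMSO (1.04) and with luteolin against 0 h (-1.04), which made 4 and 2 integrins called. Within slides 2 and 3 the change with both drugs against DMSO was -1.49 and -1.32 for ITGA6, -1.60 and -0.92 for ITGB8, and 1.57 and 0.97 for ITGA3, and within slide 3 the change with gefitinib was -1.05, -1.23 and 1.33.

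Quantile normalization gave 1 call for gefitinib against 0 h and 1 for gefitinib against luteolin, and ITGB1 read -0.051 and -0.15 with gefitinib against DMSO and 0 h. Without scaling, 0, 2 and 3 of the 9 integrins were called for luteolin, gefitinib and both drugs against 0 h. Against luteolin 4 were called for gefitinib and 4 for both drugs. Among values past the adjusted p with or without scaling, signs then changed against DMSO with gefitinib for ITGA2 (-0.56), ITGB1 (-0.19) and ITGB4 (-0.063), and with both drugs for ITGA2 (-0.19), ITGAV (-0.82), ITGB1 (-0.10) and ITGB5 (-0.94). Against 0 h they changed with gefitinib for ITGA2 (-0.70), ITGA3 (-0.31) and ITGB1 (-0.18), and with both drugs for ITGA2 (-0.33), ITGA3 (-0.071), ITGAV (-0.78) and ITGB1 (-0.088). Against luteolin they changed for ITGB5 with gefitinib (-0.79) and ITGA2 with both drugs (-0.69).

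By the treatments of the file names the calls against DMSO were 3 with luteolin and 0 with gefitinib, those against 0 h were 1 with gefitinib and 0 with both drugs, and there were 1 for gefitinib and 0 for both drugs against luteolin and 2 for both drugs against gefitinib. Signs changed against DMSO for ITGB1 (0.85) and ITGB8 (-1.26) with luteolin, and for ITGB1 (-0.066), ITGB4 (-0.078) and ITGB8 (0.75) with gefitinib. Against 0 h they changed for ITGB1 (0.82) and ITGB8 (-0.67) with luteolin, and for ITGB1 (-0.089), ITGB4 (-0.81) and ITGB8 (1.34) with gefitinib. For gefitinib against luteolin ITGA3 read -0.74, ITGA6 0.78, ITGAV 0.57, ITGB1 -0.91, ITGB4 -0.18 and ITGB8 2.02. For both drugs against luteolin ITGA3 read -0.14, ITGA6 0.37, ITGAV 0.22 and ITGB8 0.21, and against gefitinib ITGB1 read 0.92 and ITGB4 1.06. FERMT1 (0.22) and LAMB1 (0.060) with both drugs, CD3E (-0.26) with gefitinib and ITGA1 (-0.10) with luteolin also changed sign against DMSO.

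Without a minimum fold the calls were 3, 6 and 5 against DMSO with luteolin, gefitinib and both drugs, 4, 3 and 4 against 0 h, 4 and 5 against luteolin for gefitinib and both drugs, and 1 for both drugs against gefitinib. The methods' t-test, adjusted or not, called 0 of the 9 integrins for luteolin and 0 for both drugs against 0 h. Leaving out each array gave 0 to 0 calls for DMSO against 0 h, 0 to 0, 2 to 4 and 1 to 4 against DMSO with luteolin, gefitinib and both drugs, 0 to 1, 0 to 1 and 1 to 4 against 0 h, 1 to 2 and 1 to 3 against luteolin for gefitinib and both drugs, and 0 to 1 for both drugs against gefitinib. Where a result changed, the cause was not tested. Array signal over background limits ITGB6 and probes of ITGAV and ITGB8, and 2 arrays a group limit ITGA5.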
